A study of Homo sapiens with 49 samples.

Results

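The cytosolic ribosomal protein genes were described in 45 lists of ChIP-seq peaks from Ishikawa and T-47D cells. Members were the protein-coding genes annotated on hg19 whose symbol is RPL or RPS followed by a number, with RPLP0, RPLP1, RPLP2 and RPSA, and without the RPS6K kinases and the symbols of paralogs and pseudogenes. The choice rested on symbols and used no measured value. It gave 79 of 20144 protein-coding genes, of which 43 encode proteins of the large subunit, 33 proteins of the small subunit and 3 proteins of the stalk. They lie on 22 chromosomes, and 29 of them host snoRNAs in their introns, 60 snoRNAs in all. A gene was counted as occupied in a list when a peak overlapped the 250 bp on either side of its annotated start by at least 1 bp, and its value was the fold enrichment of the highest such peak over the control.

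Ishikawa is an established line from an endometrial adenocarcinoma and T-47D an established line from a ductal carcinoma of the breast, and both respond to estrogen. Cells of each line were kept without hormone for 5 days and then received vehicle (DMSO) or 10 nM 17beta-estradiol (E2). The antibodies to TAF1, c-JUN, LSD1, MAX, c-MYC and RARA were used after 1 h, and those to H3K4me3, H3K4me1 and H3K27me3 after 8 h. SIN3A was profiled in stripped and in full media in both lines, H3K36me3 in Ishikawa cells without a treatment, and RNA polymerase II (Pol2) in T-47D cells after 1 h. Each condition is 1 library, except Pol2 with 2 DMSO and 2 E2 libraries, so differences between lists have no replicate check outside Pol2, and each line stands for its tumour type as a single line. At the starts of marker genes chosen after earlier results were known, H3K4me3 under DMSO marked KRT8 and PGR in both lines, GATA3 in T-47D and PAX8 in Ishikawa only, while TFF1, SOX17 and the leukocyte gene PTPRC had no start site peak in either list.

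The ribosome reads mRNA with its small subunit and joins amino acids on its large subunit. Most cytosolic ribosomal proteins are needed in equal amounts with the ribosomal RNA. The genes of cytosolic ribosomal proteins are scattered, short and among the most transcribed in growing cells. Most begin transcription at a C inside an unbroken run of C and T, the terminal oligopyrimidine or TOP motif, through which mTOR signalling controls translation of the mRNA. c-MYC with its partner MAX is known as an activator of ribosome production through the E-box CACGTG, and TAF1 is the largest subunit of TFIID, the factor that places Pol2 at starts.

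The starts of the genes that separate best by the number of lists are shown first, to let the TOP motif be seen beside the values that follow. The first 5 lines are the members with peaks in the most lists, and the last 4 are among those in the fewest, of the members with H3K4me3 in both lines. Each line holds the 60 bases before the annotated start and 20 bases from it, 5′ to 3′ on the sense strand, from GRCh37, which is the build of hg19, and capitals mark the unbroken run of C and T that covers the start.
RPL35 (chr9:127624217-127624296, minus strand): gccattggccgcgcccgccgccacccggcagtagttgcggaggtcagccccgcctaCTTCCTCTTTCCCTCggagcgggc
RPLP0 (chr12:120638895-120638974, minus strand): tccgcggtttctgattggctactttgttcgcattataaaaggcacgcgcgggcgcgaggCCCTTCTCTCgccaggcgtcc
RPS26 (chr12:56435642-56435721, plus strand): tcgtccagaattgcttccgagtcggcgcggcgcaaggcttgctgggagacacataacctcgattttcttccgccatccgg
RPL38 (chr17:72199757-72199836, plus strand): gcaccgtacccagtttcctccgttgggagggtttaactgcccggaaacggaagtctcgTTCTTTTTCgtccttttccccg
RPS14 (chr5:149829283-149829362, minus strand): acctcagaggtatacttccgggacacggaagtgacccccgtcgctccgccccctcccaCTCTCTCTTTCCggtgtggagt
RPL21 (chr13:27825635-27825714, plus strand): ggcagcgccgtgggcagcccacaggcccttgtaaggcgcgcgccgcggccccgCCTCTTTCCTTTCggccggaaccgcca
RPL36A (chrX:100645939-100646018, plus strand): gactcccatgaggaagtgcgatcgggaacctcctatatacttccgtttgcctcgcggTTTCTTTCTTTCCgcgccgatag
RPS4X (chrX:71497079-71497158, minus strand): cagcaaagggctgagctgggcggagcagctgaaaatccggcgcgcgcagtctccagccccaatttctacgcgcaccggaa
RPL24 (chr3:101405543-101405622, minus strand): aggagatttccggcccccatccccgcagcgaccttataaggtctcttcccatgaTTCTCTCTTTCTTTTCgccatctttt
The run was 15 bases at RPL35, 10 at RPLP0, 9 at RPL38 and 12 at RPS14 in the first set, and 13 at RPL21, 13 at RPL36A and 16 at RPL24 in the second. RPS26 and RPS4X had no such run at the annotated start, so both sets hold members with and without it there. At RPS26 the TAF1 summits in Ishikawa lay 216 bp (DMSO) and 230 bp (E2) downstream, beyond the bases shown. The medians over members were 36 and 46 bp. Pol2 summits at RPS26 lay 265 to 293 bp downstream in T-47D. Whether RPS26 is transcribed from its annotated start in these cells was not tested.

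Over all 79 members the start base was C in 63, A in 10 and G in 6. A run of at least 5 bases covered the start in 78.5% of members against 7.60% of the 20061 other protein-coding genes, and its median length was 11 bases against 0. Motifs were searched on both strands in the 250 bases before and 50 after the start, each on its own, so that overlapping matches of different motifs were all counted. CCGGAA, the core bound by ETS factors, was found in 44 of 79 members (55.7%) against 22.5% of other genes, and the motif of YY1, searched as 1 fixed string, in 10 (12.7%) against 3.99%. GGGCGG, bound by SP factors, was found in 46 members (58.2%) against 61.0%, and TATAA in 16 (20.3%) against 16.7%. CACGTG was present in 5 members (6.33%) against 8.75%, and the AP-1 site TGACTCA, bound by c-JUN with its partners, in RPL24 alone (1.27%) against 3.58%. Median GC content of these 300-base windows was 59.3% in members and 63.7% in other genes. The other genes here were not limited to those with H3K4me3 in these cells, unlike in most comparisons below.

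The lists held between 2 and 46282 peaks. The shortest included the c-MYC lists of Ishikawa, with 61 peaks under DMSO, 31 of them at most 100 bp wide, and 2 under E2. The other shortest lists were of T-47D. LSD1 under DMSO had 42 peaks (28 at most 100 bp wide), and SIN3A in stripped media had 75 (45 at most 100 bp wide). H3K27me3 under E2 had 107 peaks, of which 91 were at most 100 bp wide and 0.935% overlapped H3K4me3 peaks. H3K27me3 is a mark of repressed chromatin, but 81.5% and 95.3% of the peaks of the Ishikawa H3K27me3 lists under DMSO and E2, and 85.7% of those of the T-47D list under DMSO, overlapped H3K4me3 peaks of the same line. These lists are called by their label, and what their peaks hold beside that mark was not tested.

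H3K4me3, the mark of active starts, was present at 76 of 79 members in Ishikawa cells under DMSO, where 63.5% of all other protein-coding genes had a start site peak, and at 75 of 79 in T-47D cells, where 56.7% did. The 12744 and 11384 other genes that had it served as the comparison for every further list of the same line. The same 76 and 75 members were occupied under E2, against 99.5% and 91.6% of the comparison genes. These peaks were described by their height, their width and the position of their summit. In Ishikawa cells under DMSO the median fold enrichment was 22.97 at members and 21.1 at other genes, and in T-47D cells it was 16.2 and 13.98. Median widths were 1684 bp at members and 1140 bp at other genes in Ishikawa cells, and 1034 bp and 729 bp in T-47D cells. Summits lay a median of 150 bp downstream of the start in Ishikawa cells and 165 bp downstream in T-47D cells, inside the first part of the gene.

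The widest H3K4me3 peaks in Ishikawa cells under DMSO were at RPL7A (2687 bp), RPLP2 (2569 bp) and RPL27A (2499 bp), and the narrowest at RPS4X (611 bp), RPL6 (736 bp) and RPL17 (967 bp). In T-47D cells the widest were at RPL12 (3750 bp), RPL8 (3278 bp) and RPL27A (2592 bp), and the narrowest at RPL26 (236 bp), RPS9 (423 bp) and RPS4X (475 bp). RPL27A was thus among the widest and RPS4X, the X-linked copy of a small subunit protein, among the narrowest in both lines. RPL7A, RPL12 and RPL27A share their start region with another gene, as do 11 members in all, and at these the peak cannot be given to a single gene. The highest fold enrichment in Ishikawa cells was at RPS26, with 44.1 under DMSO and 45.4 under E2. In T-47D cells RPL37A was highest, with 30.4 under DMSO and 26.7 under E2.

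No start site peak was found in any of the 45 lists at 3 members, RPS4Y1 and RPS4Y2 among them. RPS4Y1 and RPS4Y2 lie on chromosome Y, where 19 of the 45 lists had no peak and no list had more than 6. RPS7 had an H3K4me3 peak over its start in Ishikawa cells (fold enrichment 29.6 under DMSO and 30.7 under E2). In T-47D cells the nearest H3K4me3 peak began 339 bp downstream of its start under DMSO and 626 bp downstream under E2, outside the window.

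**Figure D1:**
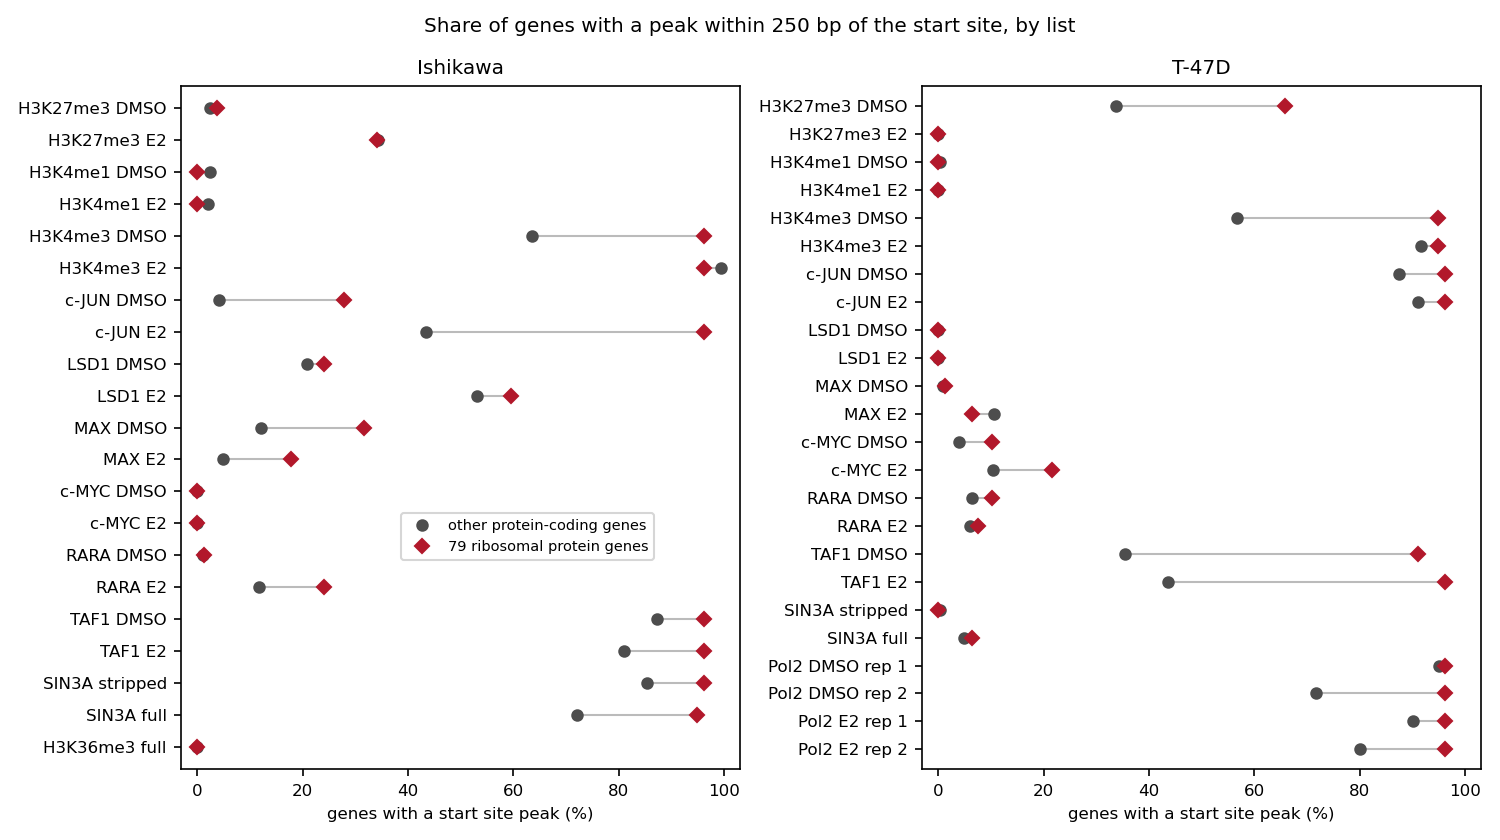
Share of genes with a peak within 250 bp of the start (horizontal axis, %) in each list of Ishikawa (left) and T-47D (right); diamonds are the 79 ribosomal protein genes, circles the other protein-coding genes with H3K4me3 under DMSO in the same line, or all other genes for the H3K4me3 DMSO lists themselves. Leaving out the H3K4me3 lists under DMSO, the diamonds lie right of the circles in 29 of 43 lists, left of them in 12 and at 0 with them in 2, with the widest gaps at TAF1 in T-47D and c-JUN under E2 in Ishikawa.

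All 76 members with any peak were occupied in the same 13 lists, which are lists of H3K4me3, TAF1, c-JUN, SIN3A and Pol2, while 11 lists held no member, and the other 21 lists held between 1 and 75. The share of members was above that of the comparison genes in 29 of the 43 lists other than H3K4me3 under DMSO. Counted without the 3 members that had no peak in any list, an alternative added after the data were seen, it was above in 31.

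TAF1 showed the largest difference in T-47D cells. It occupied 72 of 79 members under DMSO and 76 under E2, where 35.5% and 43.5% of the comparison genes had a peak. In Ishikawa cells it occupied 76 members under both treatments, against 87.2% and 81% of other genes. Peaks were also higher at members: the median fold enrichment was 38.8 at members and 20.1 at other genes in Ishikawa cells under DMSO, and all 76 members lay above the median of the other genes. In T-47D cells under DMSO the medians were 11.4 and 6.64, and 63 of the 72 occupied members lay above. RPL21, RPL36A, RPLP2 and RPS27A were the members without a TAF1 peak in T-47D under DMSO that gained one under E2.

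The highest TAF1 values differed between lines. RPS2, a small subunit protein near the mRNA entry, had a fold enrichment of 75.5 in Ishikawa under DMSO and 62.7 under E2, but 10.8 and 13.2 in T-47D. RPL11, a large subunit protein that also binds MDM2, had 72.3 and 67.2 in Ishikawa, and 15.1 and 27.7 in T-47D. RPS15, needed for export of the small subunit from the nucleus, led in T-47D with 36.1 under DMSO and 44.4 under E2, and had 51.2 and 45.5 in Ishikawa. RPL37A followed it in T-47D with 28.0 and 36.6. Across members, Spearman's rho between the treatments was 0.92 in Ishikawa (n = 76) and 0.88 in T-47D (n = 72), but 0.35 between the lines under DMSO (n = 72) and 0.57 under E2 (n = 76). These are descriptions across genes, which are not replicates, and lists of 1 line share its genome. The labels do not say whether they share cell cultures.

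c-JUN was found at members in both lines, although only RPL24 among them carries TGACTCA in its window. In T-47D cells all 76 members were occupied under DMSO and E2, against 87.5% and 91.1% of other genes, so that the list covers nearly all active starts. The median fold enrichment was 28.0 at members and 15.8 at other genes under DMSO, and 35.3 and 22.3 under E2. RPS15 was highest with 66.1 under DMSO and 90.7 under E2, followed by RPL37A with 50.1 and 67.7. RPL24 itself had 26.9 under DMSO and 4.55 under E2, which was the lowest value of any member there. In Ishikawa cells c-JUN occupied 22 members under DMSO, where 4.1% of other genes had a peak, and 76 under E2, where 43.3% did. RPS26 was highest under DMSO with 15.05, followed by RPS2 with 11.7 and RPS12 with 11.4, and RPS2 under E2 with 24.4.

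Pol2 start site peaks were present at all 76 members in each of the 4 T-47D libraries. The comparison genes had them in 95.1% and 71.8% of cases in DMSO replicates 1 and 2, and in 90.1% and 80% in E2 replicates 1 and 2. The median fold enrichment of members was 57.9, 18.4, 33.1 and 21.8 in that order, against 54.1, 13.4, 26.7 and 16.3 at other genes. Libraries of the same treatment thus differed more from each other than members did from other genes in any library. RPS2 was highest in 3 of the 4 libraries, with 127 in DMSO replicate 1, 46.7 in DMSO replicate 2, 55.4 in E2 replicate 1 and 63.1 in E2 replicate 2, and RPL15 was highest in DMSO replicate 2 with 47.4. Pol2 peaks covered a median of 1415 bp, 994 bp, 1445 bp and 816 bp of a member, against 963 bp, 409 bp, 741 bp and 469 bp of another gene with a start site peak in all 4 lists. Members were the shorter genes, with a median length of 5440 bp against 32019 bp.

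SIN3A, the scaffold of a histone deacetylase complex, occupied 76 members in stripped media and 75 in full media in Ishikawa cells, against 85.3% and 72% of other genes. RPS4X was the member without a peak in full media. The median fold enrichment of members was 28.7 in stripped and 15.6 in full media, against 24.6 and 13.9 at other genes. RPL35 and RPS19 were among the highest in stripped media with 52.6 and 51.7, and RPS16 and RPL18 in full media with 27.9 and 27.5. In T-47D cells no member was occupied in stripped media (0.343% of other genes) and 5 in full media (4.88%). These were RPL35A (fold enrichment 11.3), RPL32 (9.18), RPL4 (8.85), RPLP0 (7.95) and RPL5 (7.05). The share of members, 6.33%, was near that of the other genes.

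**Figure D2:**
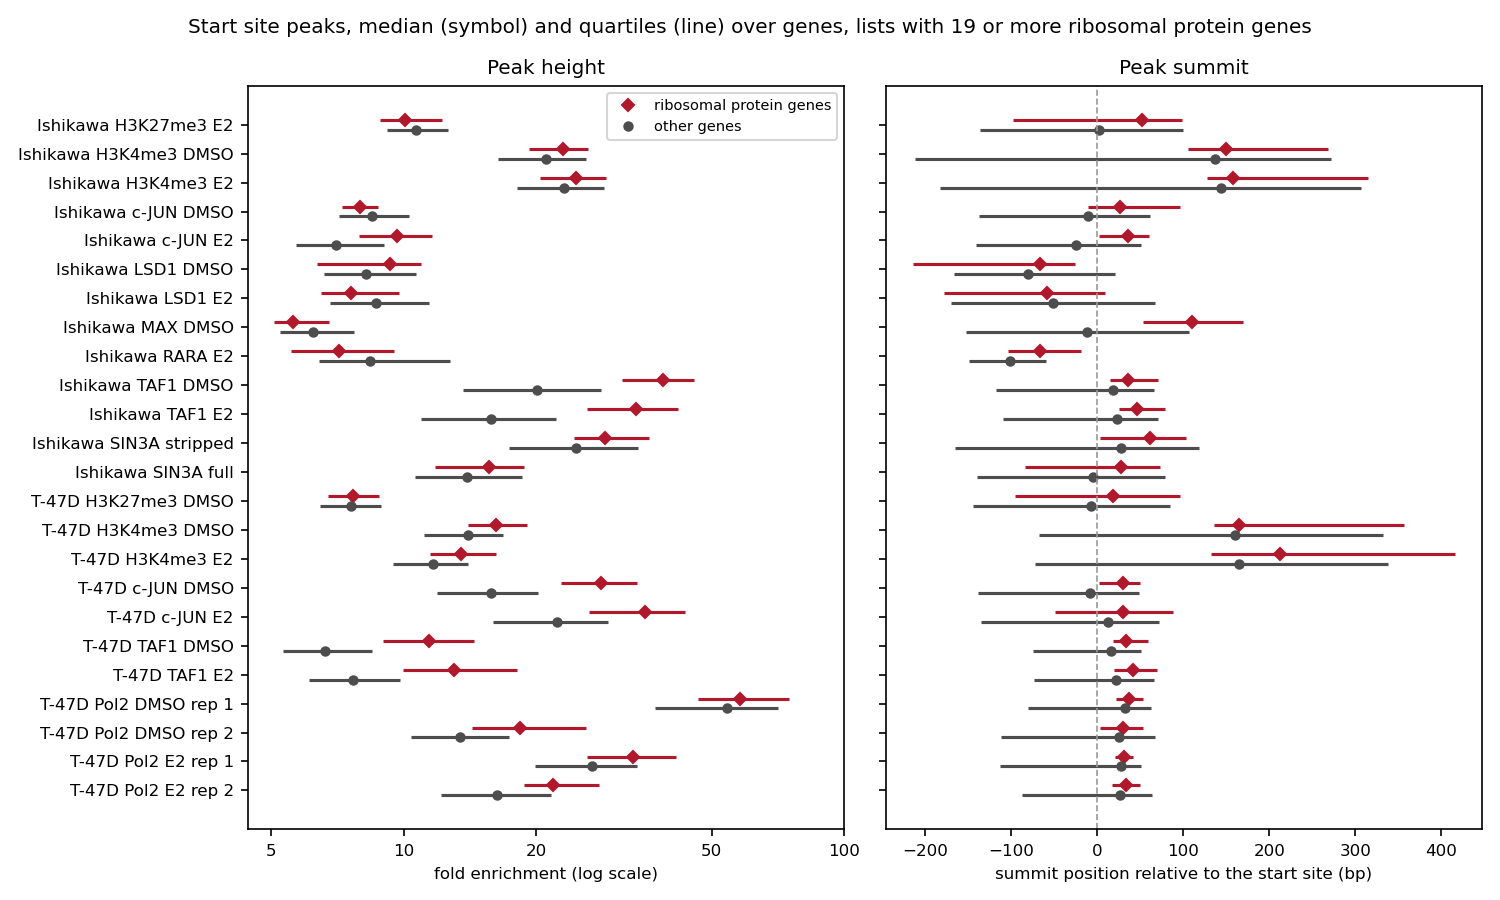
Height (left, fold enrichment on a log scale) and summit position (right, bp from the annotated start, positive downstream) of start site peaks in the lists with 19 or more occupied members; symbols are medians over genes and lines run between the quartiles. The TAF1 and T-47D c-JUN peaks stand higher at members (diamonds) than at other genes (circles), and the median member summits of TAF1, c-JUN and Pol2 lie between 27 and 46 bp downstream of the start.

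The summits of the machinery stood close together at members. The median summit was 36 bp downstream of the start for TAF1 in Ishikawa under DMSO, 33 bp for TAF1 in T-47D under DMSO and 30.5 bp for c-JUN there. For Pol2 it was 36.5, 30, 31 and 33 bp downstream in DMSO replicates 1 and 2 and E2 replicates 1 and 2. In Ishikawa TAF1 under DMSO the summit fell within 100 bp of the start at 71 of 76 members. At other genes the medians were 18 and 16 bp downstream for TAF1 under DMSO in Ishikawa and T-47D, and 25 to 32 bp for Pol2. Their lower quartile lay upstream of the start, at -118 bp for TAF1 in Ishikawa under DMSO, where that of members was 15 bp downstream. H3K4me3 summits fell within 100 bp of the start at 3 of 76 members in Ishikawa and 3 of 75 in T-47D under DMSO. LSD1 and RARA summits lay on the other side, at members and at other genes alike. RARA summits were upstream at 17 of 19 members in Ishikawa under E2 and at all 8 in T-47D under DMSO. Their medians were -67 and -92 bp at members, against -102 and -109 bp at other genes. For LSD1 in Ishikawa the medians were -67 bp (DMSO) and -59 bp (E2) at members, against -80 and -52 bp at other genes.

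LSD1, a histone demethylase of repressor complexes, occupied 19 members in Ishikawa under DMSO (20.9% of other genes) and 47 under E2 (53.1%). Both counts are close to the shares of the other genes. RPS26 was highest under DMSO with a fold enrichment of 21.6, followed by RPL23A with 12.8 and RPS3 with 12.2. Under E2, RPL8 with 16.8 and RPS3 with 16.0 were among the highest. In T-47D cells no member had an LSD1 peak under DMSO or E2, and 0.00878% of other genes did in each list, which is a single gene.

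MAX and c-MYC, which bind DNA as a pair, were found at some members only. MAX occupied 25 members in Ishikawa under DMSO (12.1% of other genes) and 14 under E2 (4.97%), and 11 members were in both lists. RPL5, which like RPL11 binds MDM2, and RPS2 were highest under DMSO with 8.32 each, and RPS26 under E2 with 9.13. In T-47D cells MAX occupied RPS15 under DMSO with 13.3 (0.949% of other genes). Under E2 it occupied RPL13 with 18.1, RPL8 with 14.2, RPSA with 13.8, RPL35 with 10.7 and RPS21 with 8.76, 5 members where 10.5% of other genes were occupied. The share of members, 6.33%, was below that of the other genes.

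c-MYC occupied no member in Ishikawa cells, where the lists held 0.0157% of other genes under DMSO and 0.0157% under E2. In T-47D it occupied 8 members under DMSO, against 3.94% of other genes. They were RPS15A with a fold enrichment of 14.6, RPS20 with 14.3, RPL8 with 11.7, RPL36 with 10.7, RPS3 with 10.6, RPL13 with 9.78, RPL35 with 9.21 and RPL10A with 6.81. Under E2 it occupied 17 members against 10.4% of other genes, with RPS15 at 14.05, RPL8 at 11.4 and RPL38 at 11.1 as the highest. The lists shared 6 members, RPL10A, RPL13, RPL35, RPL8, RPS20 and RPS3. Of the 5 members with a MAX peak in T-47D under E2, 4 were also in the c-MYC list under E2, namely RPL13, RPL35, RPL8 and RPS21. That c-MYC list held 21.5% of all members, and the overlap at other genes was not counted.

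None of the members occupied by c-MYC in T-47D carried CACGTG between 250 bases before and 50 bases after the start. Few members carry it at all (5 of 79, 6.33%), and its share among other genes with c-MYC was not counted. The 5 members that do carry it are shown as 30 bases on the sense strand around the motif, in capitals, with its position counted from the start.
RPL13A (chr19:49990632-49990661, plus strand, position -221): gcctccgcgcccCACGTGatctctcgccgg
RPL19 (chr17:37356293-37356322, plus strand, position -231): gttacagataacCACGTGattgggaaccct
RPL23 (chr17:37010033-37010062, minus strand, position -76): ttttgctccggcCACGTGaggagggtgggc
RPS2 (chr16:2014793-2014822, minus strand, position 17): tttccgacaaaaCACGTGagtcctgttggt
RPS28 (chr19:8386362-8386391, plus strand, position -6): ctctccccgaagCACGTGactcctctccgc
RPS2 was the only one of these with a MAX peak in any list, in Ishikawa under DMSO. A missing match says only that these letters are not in this window, and c-MYC summits at members lay up to 276 bp downstream of the start, at RPL38 under E2.

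RARA, the retinoic acid receptor alpha, occupied RPS26 alone in Ishikawa under DMSO, with 9.27 (0.997% of other genes), and 19 members under E2 (11.8%). RPLP0, the base of the stalk, was highest under E2 with 19.25, followed by RPS26 with 13.9. In T-47D it occupied 8 members under DMSO (6.37%) and 6 under E2 (5.96%). RPS21 was highest under DMSO with 8.38, and values lay at 7.09 for RPLP0, 7.07 for RPS20, 6.74 for RPL13A, 6.05 for RPS26, 5.31 for RPL37 and 5.22 for RPS14. Under E2 the values included 8.70 at RPLP0, 7.71 at RPL13A, 6.62 at RPS26, 6.12 at RPS20 and 4.84 at RPL13. Of the 8 members in the T-47D list under DMSO, 7 were among the 19 in the Ishikawa list under E2, which is 37% of the latter. That Ishikawa list held 24.1% of all members, and the overlap at other genes was not counted.

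The lists labelled H3K27me3 held 3 members in Ishikawa under DMSO (2.51% of other genes), with 9.12 at RPS24, 5.84 at RPL12 and 5.23 at RPS21. They held 27 under E2 (34.3%), with RPS15 at 14.3, RPL36 at 13.95 and RPS3 at 13.2 as the highest. In T-47D they held 52 members under DMSO (33.8%), again led by RPS15 with 15.1 and RPL36 with 12.4, and no member under E2 (0%). The 27 members of the Ishikawa E2 list and the 52 of the T-47D DMSO list had 24 in common, which is 89% of the former and 46% of the latter. Except for the T-47D list under E2, the lists labelled H3K27me3 lie mostly at H3K4me3 positions, as given above. How far they follow the mark of the label was not tested.

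H3K4me1, a mark of enhancers and of the flanks of starts, had no start site peak at any member. Other genes had one in 2.37% of cases in Ishikawa under DMSO and 1.98% under E2, and in 0.246% and 0.0264% in T-47D. H3K36me3 marks transcribed gene bodies. Its list of 114 peaks had none at a member's start (0% of other genes) or inside a member's body, and 85 of 12744 other genes (0.667%) had 1 in the body, so that the mark at members was not detectable in this list.

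**Figure D3:**
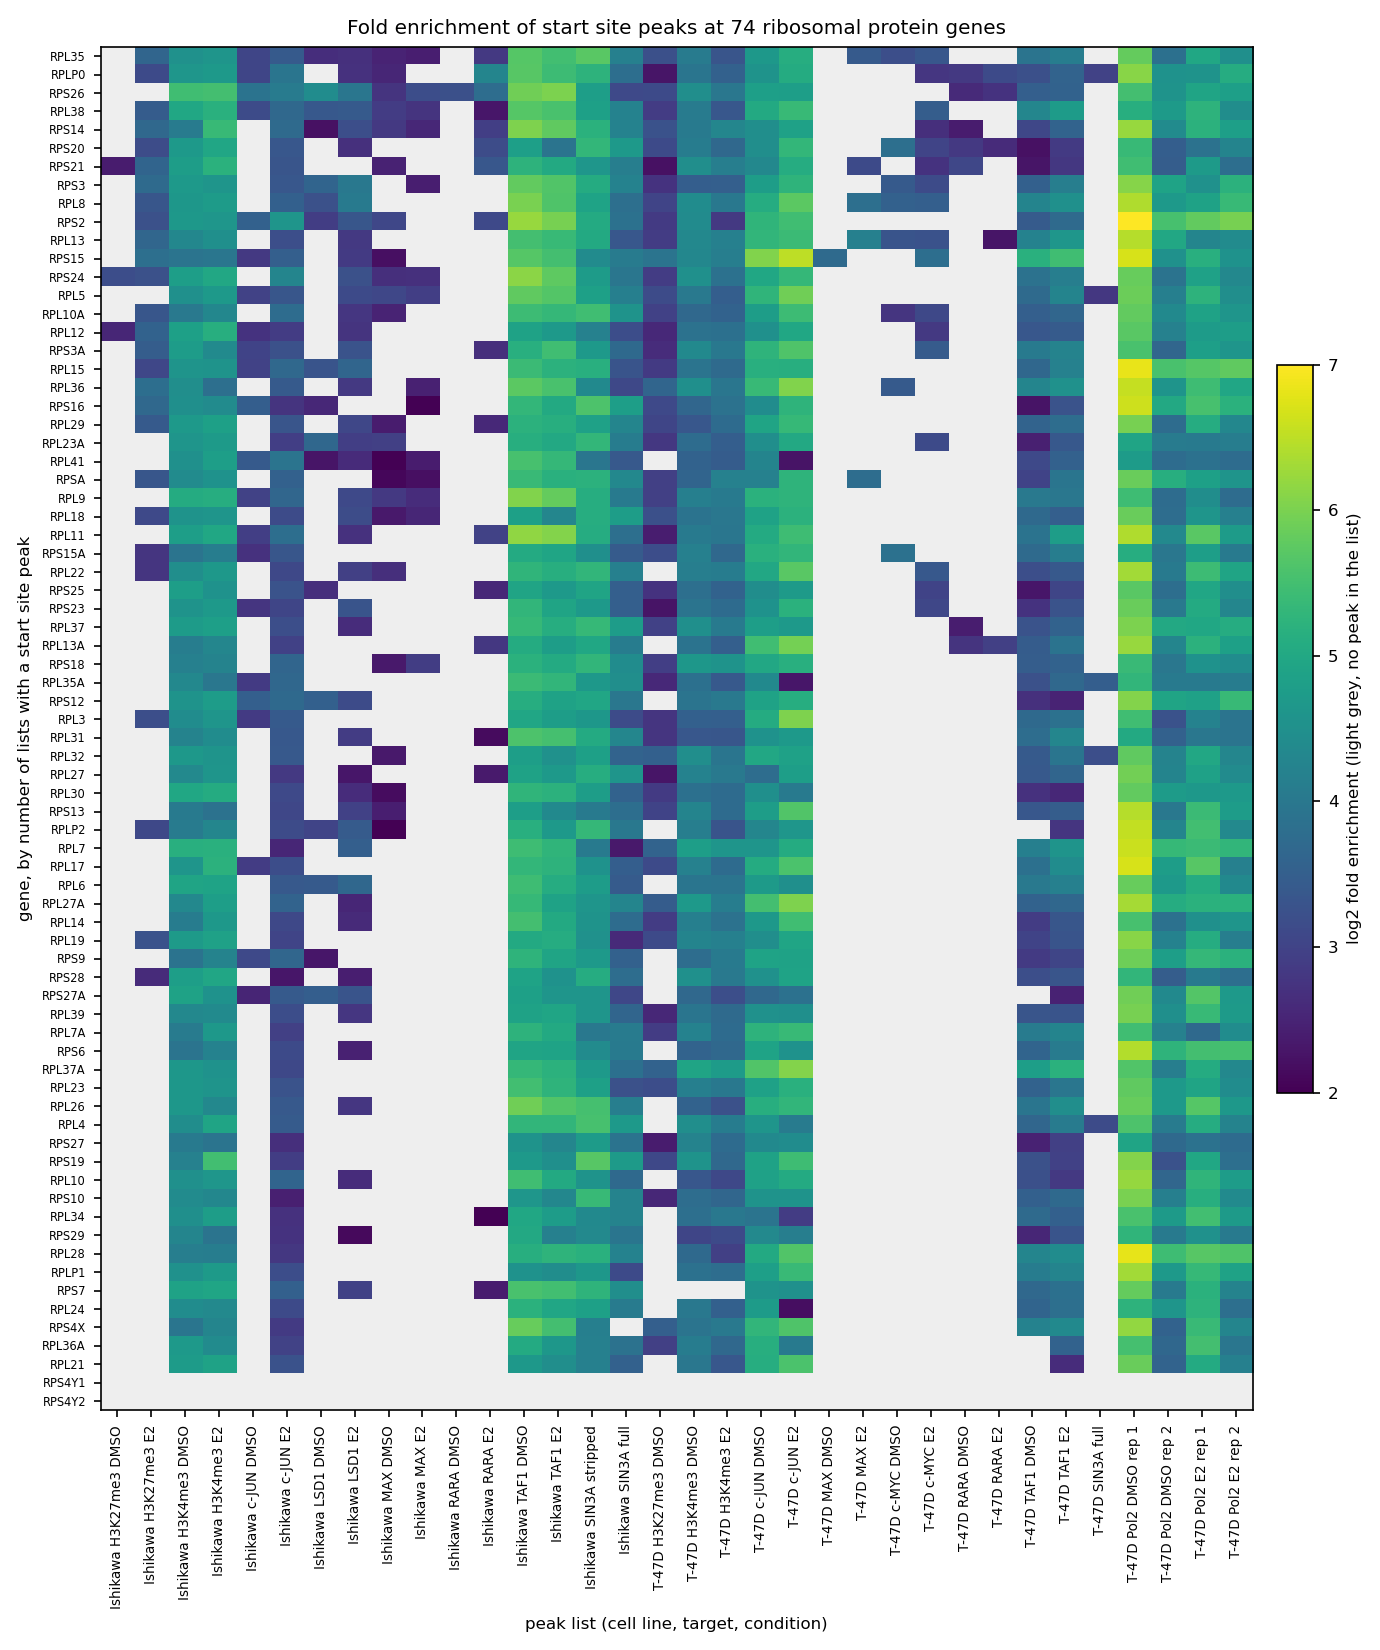
Fold enrichment (colour, log2) of the start site peak of 74 of the 79 ribosomal protein genes (rows, ordered by the number of lists with a peak) in the 34 lists that held at least 1 of them (columns); light grey marks no peak in the list. The H3K4me3, TAF1 and Pol2 columns, c-JUN in all but Ishikawa under DMSO, and SIN3A in Ishikawa are filled from RPL35 at the top to RPL21 with at most 4 gaps each, while the MAX, c-MYC and RARA columns hold few genes, mostly in the upper rows by the ordering.

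The occupied members had start site peaks in 16 to 28 of the 45 lists, with a median of 20. RPL35, a protein at the exit of the nascent chain, was in 28 lists, RPLP0 and RPS26 in 27, and RPL38 and RPS14 in 26. RPL35 shares its start region with ARPC5L. RPL21 was in 16, and RPL36A, RPS4X and RPL24 were among 7 members in 17. Lists were split by how many members they held, so members could differ little in the nearly full ones. At least 72 members were held by 17 lists, and 1 to 71 by 17 lists. RPL35 was in 11 of the latter, RPLP0 and RPS26 in 10, RPL38 and RPS14 in 9, while RPL21, RPL24, RPL28 and RPLP1 were among the members in none of them.

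Counts by subunit were as follows. c-JUN in Ishikawa under DMSO occupied 11 of 43 large subunit genes and 10 of 33 small subunit genes, c-MYC in T-47D under E2 8 and 8, and RARA in Ishikawa under E2 9 and 9. LSD1 in Ishikawa under E2 occupied 28 of 43 and 17 of 33, and the H3K27me3 list of T-47D under DMSO held 31 of 43 and 20 of 33. By start base, the median TAF1 fold enrichment in Ishikawa under DMSO was 38.5 at the 62 occupied members that start at C and 39.3 at the other 14. In T-47D it was 11.5 at 58 members and 11.4 at 14. Medians of these sizes were not tested, since members are not replicates of a condition.

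Other genes of the translation machinery stood between members and the rest at some targets. The 78 mitochondrial ribosomal protein genes, which serve the separate ribosome of the mitochondrion, had TAF1 peaks in T-47D under DMSO at 47 genes (60.3%), and 12 of 15 other genes of TOP mRNAs, such as translation factors, had them. Their median TAF1 fold enrichment in that list was 6.80 and 7.41, against 11.4 at members. c-JUN in Ishikawa under DMSO occupied 5 of 78 mitochondrial genes (6.41%) and 4 of 15 other TOP genes (26.7%), namely EEF1A1, EEF2, HNRNPA1 and PABPC1. MAX in Ishikawa under DMSO occupied 10 of 14 genes of ribosome biogenesis (71.4%), among them NCL, FBL, NOP56 and POLR1A, against 25 of 79 members. c-MYC in T-47D under E2 occupied none of those 14, 9 of 78 mitochondrial genes and 1 of 15 other TOP genes. FAU, which encodes a ribosomal protein fused to a ubiquitin-like part, had peaks in 18 lists.

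Of the 8 paralogs with symbols ending in L, RPL10L and RPL3L had no peak in any list. RPL22L1 had peaks in 23 lists, RPS27L in 22, RPL36AL in 20, RPL7L1 in 17, RPL26L1 in 16 and RPL39L in 10. RPL39L had H3K4me3 (fold enrichment under DMSO of 14.5 in Ishikawa and 10.5 in T-47D) but no TAF1 peak in any list. Its parent RPL39 had TAF1 peaks in both lines.

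Between E2 and DMSO, 18 comparisons of single libraries could be made. More members had a peak under E2 in 7, fewer in 3 and as many in 8. In each comparison where this number changed, the share of other genes moved the same way. In Ishikawa that share went from 4.1% to 43.3% for c-JUN, 2.51% to 34.3% for H3K27me3 and 12.1% to 4.97% for MAX. The longer list usually held more members: c-JUN in Ishikawa went from 3768 to 18311 peaks and from 22 to 76 members, H3K27me3 from 2199 to 6992 peaks and from 3 to 27, LSD1 from 8618 to 18384 and from 19 to 47, and RARA from 137 to 2883 and from 1 to 19. When each pair was shortened to the length of its shorter list by peak significance, the E2 counts were 37 for c-JUN, 7 for H3K27me3, 26 for LSD1 and 1 for RARA. More members then had a peak under E2 in 6 comparisons and fewer in 1, MAX in Ishikawa with 16 under DMSO and 14 under E2. Other genes were not counted in the shortened lists, so these counts have no background share beside them.

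**Figure D4:**
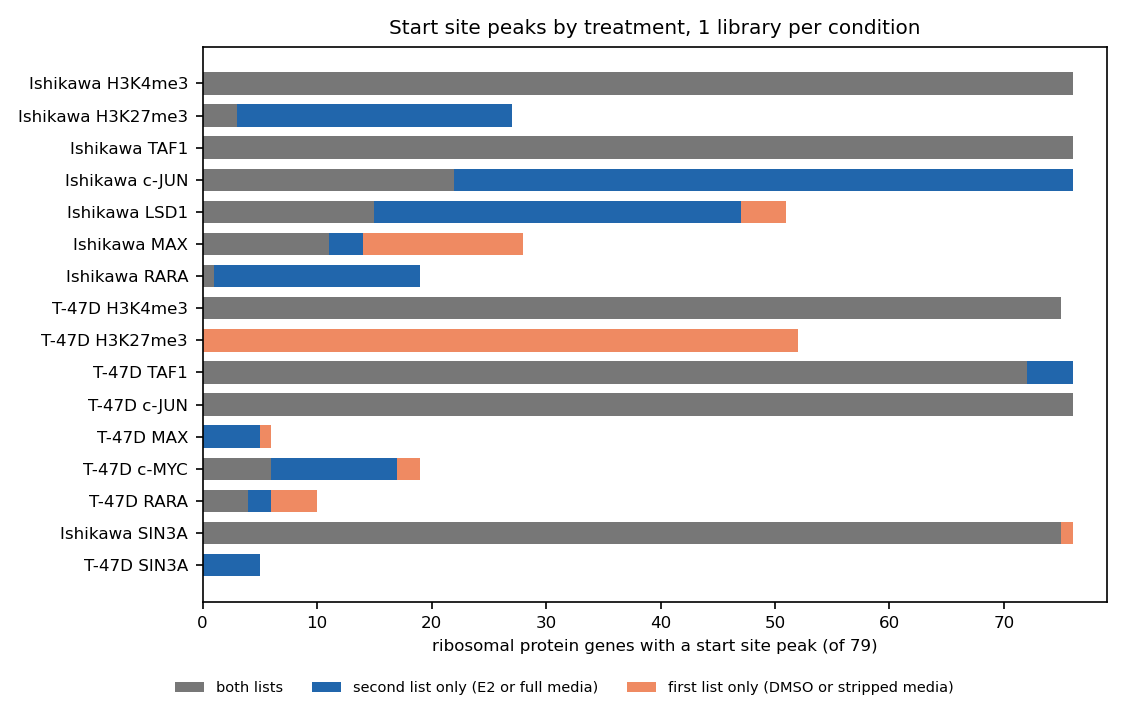
Number of ribosomal protein genes (horizontal axis, of 79) with a start site peak in both lists of a comparison, only under E2 or in full media, or only under DMSO or in stripped media, 1 library per condition; comparisons with no member in either list are left out. The c-JUN, LSD1, RARA and H3K27me3 bars of Ishikawa are mostly blue, with 54, 32, 18 and 24 members only under E2, and the H3K27me3 bar of T-47D holds 52 only under DMSO.

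All 22 members with c-JUN in Ishikawa under DMSO kept it under E2, as did 517 of 523 other genes, and 54 members gained it. Under E2 the median fold enrichment was 11.98 at those 22 and 8.86 at the 54. For LSD1, 15 of 19 members kept their peak, 4 lost it (RPS16, RPS25 and RPS9 among them) and 32 gained it. Of the 2666 other genes with LSD1 under DMSO, 2559 kept it. MAX in Ishikawa went the other way, with 14 members only under DMSO, 11 in both lists and 3 only under E2. Of the 1548 other genes with MAX under DMSO, 523 kept it. In T-47D c-MYC was lost at RPL36 and RPS15A and gained at 11 members. Of those with c-MYC under DMSO, 6 of 8 members and 211 of 448 other genes kept it. RPL13 gained the most, with H3K27me3, c-JUN and LSD1 in Ishikawa and MAX and RARA in T-47D, followed by RPL22 and RPL29, the first by symbol of 9 members with 4 targets. RPS15 and RPS21 lost peaks in 3 comparisons each, and RPL10A, the first by symbol of 16 members, in 2.

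Where both lists held at least 72 members, heights could be compared. The median log2 ratio of fold enrichment, E2 over DMSO, at members was 0.13 for H3K4me3 in Ishikawa (other genes 0.11) and -0.25 in T-47D (-0.29). For TAF1 it was -0.21 in Ishikawa (-0.39) and 0.27 in T-47D (0.28), and for c-JUN in T-47D 0.34 (0.54). For SIN3A in Ishikawa, full over stripped media, it was -0.97 (-0.93). In every one of these 6 comparisons the sign at members was that of the other genes, and with 1 library a condition the shift cannot be told apart from a difference between libraries.

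The 4 Pol2 libraries of T-47D allowed a test. Genes with a start site peak in all 4 lists were fitted with limma on log2 fold enrichment, each list centred on its median, with Benjamini-Hochberg adjustment over all 8452 genes, 76 of them members. No gene passed an adjusted p of 0.05 (0%), and hence no member did. At an unadjusted p under 0.05 there were 95 genes, 1 of them a member. This was RPL13, with a log2 change of -1.02 (SE 0.38, n = 2 against 2, limma adjusted p = 0.9998). Its centred log2 values were 0.51 and 1.25 under DMSO against -0.58 and 0.29 under E2, so that the groups did not overlap.

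The members' median log2 change was 0.04, with 42 of 76 above 0, and that of all genes 0.0025. After RPL13 the lowest were RPL17 (-0.45), RPSA (-0.42), RPS15 (-0.41) and RPL7A (-0.41). The highest were RPL36A (0.50), RPS3A (0.47) and RPL10 (0.45). The E2 and DMSO values did not overlap in 14 members, 12 higher and 2 lower under E2, where 21.8% of all genes tested (1840, of which 886 higher) did not overlap. Without centring, the median of all genes was -0.35 and that of members -0.32. E2 over DMSO was then -0.98 at the median member between the libraries numbered 1 and 0.28 between those numbered 2, against -1.08 and 0.35 at other genes. Between the DMSO replicates the median member differed by -1.61. The members' median was -0.27 without DMSO replicate 1, 0.31 without DMSO replicate 2, 0.21 without E2 replicate 1 and -0.14 without E2 replicate 2, so that its sign rests on which libraries are used.

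**Figure D5:**
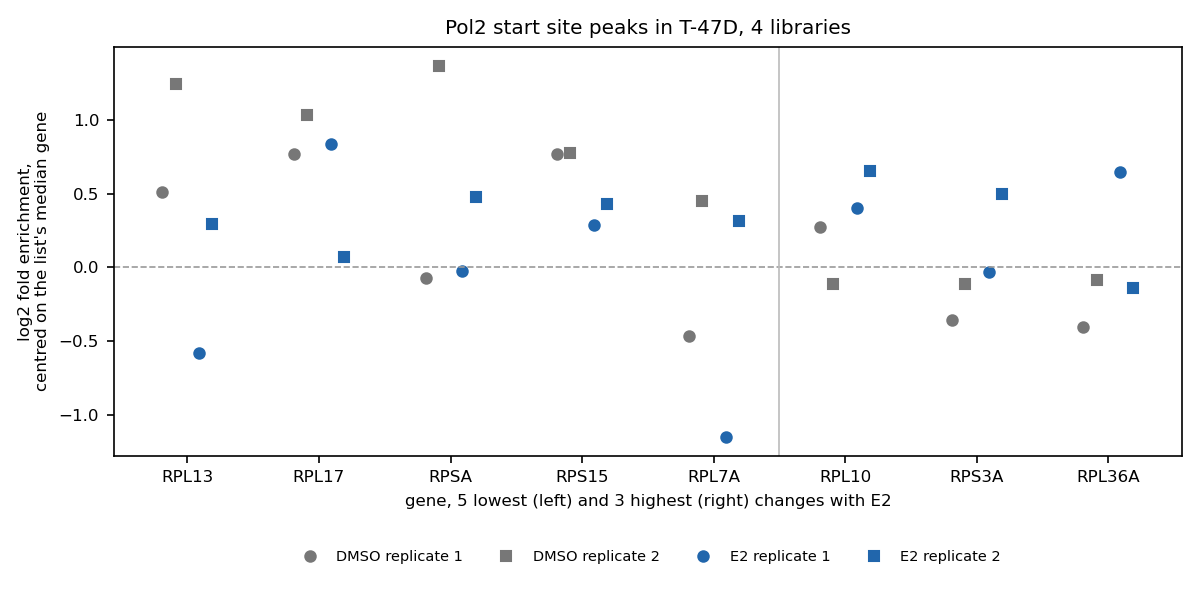
Pol2 start site peaks of T-47D at the 5 members with the lowest (left) and the 3 with the highest (right) change with E2; the vertical axis is the log2 fold enrichment centred on the median gene of each library, and each point is 1 of 4 libraries (grey DMSO, blue E2, circles replicate 1, squares replicate 2). The groups are apart at RPL13, RPS15, RPL10 and RPS3A and overlap at RPL17, RPSA, RPL7A and RPL36A, and none of the changes passed the test.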

How the data were processed

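The data were ChIP-seq peak lists from 45 of 49 samples; the 4 input samples have no list and were not analysed here. Per the labels and methods, the authors aligned 50 bp single- or paired-end reads to hg19 with Bowtie 1.1.2, keeping reads with 1 best placement, and called peaks per library with MACS2 2.1.0.20140616 at a q-value cutoff of 0.05. The deposited values are a fold enrichment (ratio) over control, −log10 p and q values, and a score, which is 10 times −log10 p. Peaks in the deposited lists have −log10 p of at least 10, and the lowest −log10 q in any list is 4.66. These floors are stricter than the stated cutoff. Reads per library are not in these files, so depth is unknown and was described by the number of peaks.

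Starts were those of the MANE Select transcript for all members (GENCODE v44 on GRCh37). A peak overlapping the 250 bp either side counted, and its fold enrichment was the value. Shares were compared as descriptions. Pol2 was tested with limma 3.58.1 (R 4.3.3), checked on simulated data, and the rest used Python 3.11.15. Labels do not say that Pol2 replicates are separate cultures, so p-values measure the spread between these libraries. Alternatives were a fold enrichment of at least 10, summits within 250 bp, 1000 bp windows, any annotated start, lists of equal length, other scalings, and single libraries left out. Named genes were those without H3K4me3, with the most or fewest lists, the highest values per list (all where at most 10), the widest or narrowest H3K4me3, and the largest changes with E2. Members and lists were chosen with earlier results of these data known. Results for some genes are not reported here.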

Additional observations from a re-analysis of the deposited data

Results flagged for a closer look

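At 4 targets the number of members with a start site peak went in opposite directions in the lines when the treatment changed, and with 1 library per condition this difference was not tested. For the lists labelled H3K27me3 it went up by 24 members in Ishikawa and went down in T-47D (-52), a difference of 76 members, and the T-47D list under E2 held 107 peaks in all. For MAX the change was -11 in Ishikawa and 4 in T-47D, a difference of -15. For RARA it was 18 in Ishikawa and -2 in T-47D, a difference of 20. For SIN3A, full against stripped media, it was -1 in Ishikawa and 5 in T-47D, a difference of -6. The share of other genes moved the same way as the members in each of these comparisons. With each pair shortened to the length of its shorter list, the directions were no longer opposite for H3K27me3, MAX and RARA. The counts under DMSO and E2 were then 3 and 7 for H3K27me3 in Ishikawa and 0 and 0 in T-47D, 16 and 14 for MAX in Ishikawa and 1 and 1 in T-47D, and 1 and 1 for RARA in Ishikawa and 5 and 6 in T-47D. SIN3A was not recomputed in this way. No sample group held 4 or more libraries, so no library was tested as an outlier.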

How the results depend on the processing

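Shares of members and other genes were recomputed under 4 other definitions of an occupied start. With a fold enrichment of at least 10, the difference in percentage points, members minus other genes, turned negative for Ishikawa H3K27me3 under DMSO (-0.189), LSD1 under E2 (-6.68), MAX under DMSO (-0.977) and E2 (-0.656) and RARA under DMSO (-0.624), and for T-47D RARA under DMSO (-2.49) and E2 (-2.06) and SIN3A in full media (-1.40). With the summit within 250 bp it turned positive for Ishikawa H3K27me3 under E2 (1.16) and negative for T-47D H3K4me3 under E2 (-22.8) and SIN3A in full media (-0.202), and 38 rather than 75 members had H3K4me3 in both lines. With any annotated start it turned positive for Ishikawa H3K27me3 under E2 (1.73). The causes were not tested. No Pol2 change at a member passed under any setting. Over all genes the count was 15 with a peak in at least 1 list of each treatment, and 0 to 35 with 1 library left out: 5 without DMSO replicate 1 and 35 without DMSO replicate 2, where the lone library is assumed to vary like the others. With the replicate block it was 0. The labels do not say what the replicate numbers stand for. Deviations of same-numbered libraries from their treatment means correlated at 0.27, with 2 pairs. Centred values correlated at 0.63 and 0.75 between same-numbered libraries of different treatments. Between libraries of the same treatment they correlated at 0.44 (DMSO) and 0.57 (E2). The block changed no call, but genes at an unadjusted limma p under 0.05 went from 95 to 193. Whether same-numbered libraries are paired was not tested. Depth is unknown, and a gene outside a list has no value.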
